A study of Mus musculus with 24 samples.

Results

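The cell cycle and DNA replication genes are 43 genes that dividing cells transcribe, from the factors that start S phase to the proteins that separate the chromosomes. They were taken by symbol from a named list, and all 43 had a probe among the 32451 genes or transcripts on the array. The mice were male WT, HDC-KO, and STAT6-KO, and RNA was taken from their splenic and bone marrow CD11b+ cells, either control or at 1, 2, and 4 weeks after myocardial infarction (MI). The study's methods give a Balb/C background and an age of 10 weeks. HDC-KO mice lack histidine decarboxylase, the enzyme that makes histamine, and STAT6-KO mice lack STAT6, a transcription factor of interleukin-4 and interleukin-13 signals. Each combination had 1 one-colour Agilent array from a pool of 5 mice, with 11 arrays used from each tissue and 22 in all. Not used, for want of spots, were those of STAT6-KO bone marrow at MI 1 week and of the HDC-KO control spleen. Conditions were not replicated, which leaves the variation from mouse to mouse unmeasured, and each test takes the variation between time points or genotypes as its error.

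A resting cell enters division when E2F factors, released from the retinoblastoma proteins, switch on cyclin E, the licensing factors, the MCM helicase, and the enzymes that supply deoxynucleotides. After S phase, B-MYB (Mybl2) and FOXM1 switch on the mitotic genes, whose promoters often carry a CHR element and CCAAT boxes. In the bone marrow, most dividing myeloid cells are precursors, while mature neutrophils no longer divide. The spleen can also produce myeloid cells after MI.

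The windows of 250 bases before the outermost listed start of each gene were searched on both strands (RefSeq, GRCm38.p6), and 35 of the 43 genes had one. Ccne2, Gmnn, Mcm4, Foxm1, Ccna2, Aurkb, Kif20a, and Tpx2 had no entry. The CHR element was searched as TTTGAA or TTCGAA, the CCAAT box as CCAAT, and the E2F motif as TTTCCCGC, TTTCGCGC, TTTGCCGC, or TTTGGCGC, and E2F matches may overlap each other. A CCAAT box stood in 25 of the 35 windows (71.4%), against 34.5% of the windows of all 27025 genes. Among the 21 mitotic genes, 17 had a CCAAT box and 9 (42.9%) a CHR element, against 17.5% of all genes for the latter. An E2F motif stood in 4 of the 14 windows of S phase entry, helicase, PCNA, and deoxynucleotide genes (28.6%), in 1 of the 21 mitotic windows (4.76%), and in 1.92% of all windows. These matches describe letters, not bound sites.

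The 150 bases before the start are shown for 5 genes, with the matches in capitals. Bub1, Kif11, and Ube2c were chosen as mitotic genes that rose in the spleen after MI, Mcm6 for its E2F motifs, and Cdk1 because it held all 3 motifs.
Bub1 (chr2:127831860-127832009, minus strand): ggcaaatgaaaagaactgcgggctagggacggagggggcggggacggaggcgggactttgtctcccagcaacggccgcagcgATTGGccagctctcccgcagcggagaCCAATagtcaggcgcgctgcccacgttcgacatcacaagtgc
Kif11 (chr19:37376232-37376381, plus strand): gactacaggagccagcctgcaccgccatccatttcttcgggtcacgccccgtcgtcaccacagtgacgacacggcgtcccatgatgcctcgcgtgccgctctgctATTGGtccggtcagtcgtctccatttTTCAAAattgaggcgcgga
Ube2c (chr2:164769779-164769928, plus strand): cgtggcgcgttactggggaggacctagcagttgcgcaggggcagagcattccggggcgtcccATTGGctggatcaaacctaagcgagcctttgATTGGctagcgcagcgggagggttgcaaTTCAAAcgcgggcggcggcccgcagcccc
Mcm6 (chr1:128359706-128359855, minus strand): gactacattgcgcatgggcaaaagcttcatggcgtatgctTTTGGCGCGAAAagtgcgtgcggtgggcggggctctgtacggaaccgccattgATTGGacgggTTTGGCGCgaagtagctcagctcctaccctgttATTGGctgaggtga
Cdk1 (chr10:69352913-69353062, minus strand): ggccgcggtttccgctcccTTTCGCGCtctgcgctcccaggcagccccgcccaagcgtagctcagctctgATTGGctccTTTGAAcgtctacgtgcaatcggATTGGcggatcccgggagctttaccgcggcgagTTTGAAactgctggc
In these windows ATTGG is a CCAAT box read on the opposite strand, and TTCAAA is a CHR element read likewise. Bub1 held CCAAT boxes alone, whereas Kif11, Ube2c, and Cdk1 also held a CHR element close before the start.

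Values are log2 signals relative to their array's 75th percentile, so that 0 is the signal of a bright spot of that array. That percentile lay between 928 and 2461 in spleen and between 963 and 1780 in bone marrow. Between 70.4 and 79.8% of the spots of an array were well above background. Hdc ranged from 1.67 to 2.78 in HDC-KO and from 4.32 to 5.51 in WT. Stat6 lay between 1.76 and 2.44 in STAT6-KO and between 2.38 and 3.70 in WT, and on its other probes the spleen array labelled STAT6-KO at MI 4 weeks (0.20 and 0.73) lay among the WT arrays. An Xist probe read -3.18 to -0.74 in HDC-KO and in the STAT6-KO controls, and between -9.36 and -7.85 in the rest, although the labels give male mice throughout. A slide carried 1 genotype in 1 tissue, with its time points at fixed positions. Genotype and tissue therefore cannot be told apart from slide, nor time from position. Within STAT6-KO, MI against control cannot be told apart from the Xist signal either.

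The cell cycle genes were lower in the spleen-derived than in the bone marrow-derived CD11b+ cells. Over 10 pairs of arrays of the same genotype and time point, 39 of the 43 genes were lower in spleen and 0 higher (limma, adjusted p under 0.05), while 32.1% of the 27668 genes tested were lower and 22.4% higher. The median difference was -1.54 on the log2 scale for the 43 genes and -0.17 for all genes. All 43 estimates lay below 0. The median difference was larger in each group of mitotic genes than in each group of S phase genes, which was not tested. In bulk RNA, fewer dividing cells and less RNA per dividing cell cannot be told apart.

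**Figure D1:**
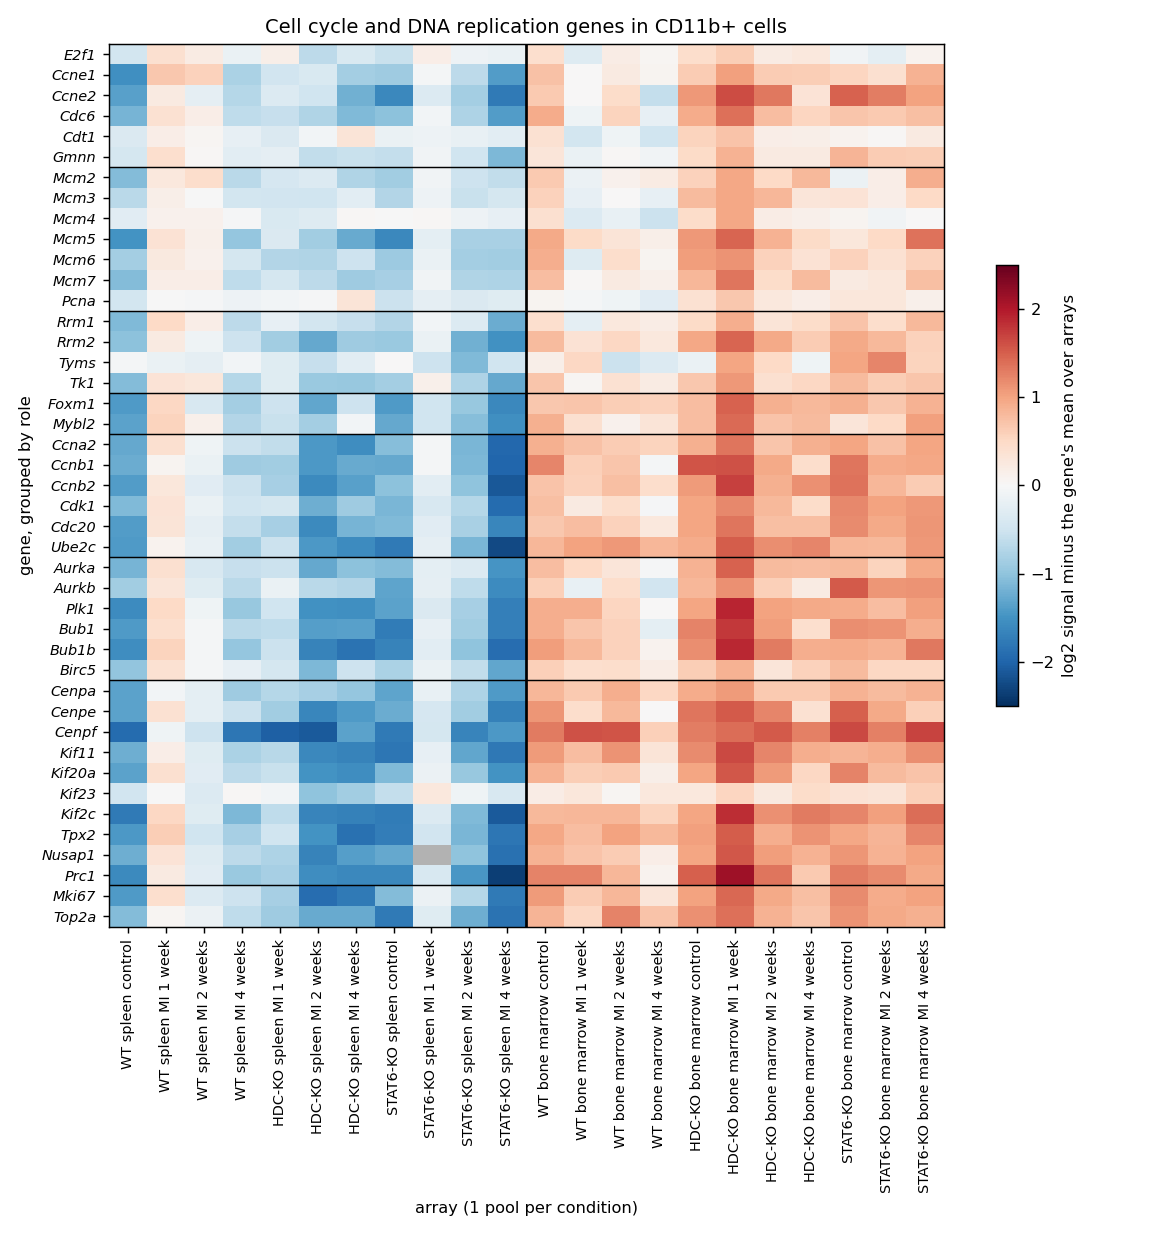
Log2 signal of each gene (rows, grouped by role) in each of the 22 arrays (columns), minus the gene's mean over the arrays, with the missing spot of Nusap1 in grey. The bone marrow arrays on the right are mostly red, and the WT spleen MI 1 week array is the reddest of the spleen arrays, with a median of 0.35 over the genes.

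Among the genes of mitosis, Prc1, which bundles the microtubules of the central spindle, ran from -1.53 to 1.05 in spleen, with a median of -0.63, and from 0.90 to 2.94 in bone marrow, with one of 2.07. It was 4.91-fold lower in spleen (-2.30 ± 0.26 on the log2 scale, SE, adjusted p = 1.65e-05). Kif2c, a kinesin that takes microtubules apart at centromeres, was 4.76-fold lower (-2.25 ± 0.28, adjusted p = 3.37e-05). Both were lower in spleen in 10 of 10 pairs.

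Ube2c, the ubiquitin-conjugating enzyme of the anaphase-promoting complex, ran from -1.46 to 0.89 in spleen (median -0.35) and from 1.61 to 2.31 in bone marrow (median 1.80). The groups did not overlap, and the difference was 4.43-fold (-2.15 ± 0.22, adjusted p = 6.95e-06). Kif11, the motor that separates the spindle poles, ran from -3.98 to -1.99 in spleen and from -1.83 to -0.51 in bone marrow, and Tpx2, which activates Aurora A on the spindle, from -1.68 to 0.81 and from 0.96 to 1.70. These groups did not overlap either, with folds of 4.29 and 4.24 (adjusted p = 1.29e-05 and 2.55e-05). Every bone marrow array lay above every spleen array for 11 of the 43 genes, against 7.31% of 27736 genes. These were Ccna2, Ccnb2, Cenpa, Foxm1, Kif11, Kif2c, Rrm2, Top2a, Tpx2, and Ube2c, and by its measured values Cenpf, whose order is not shown because its spleen values were below background.

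Cenpf, a kinetochore protein, was not well above background in any of the 11 spleen arrays and was in 10 of the 11 bone marrow arrays. Its mean was -5.55 in bone marrow and its measured mean in spleen -8.30. Against the lowest signal well above background of each spleen array, it was at least 2.12-fold higher in bone marrow. The adjusted p of 3.74e-07 (limma) belongs to the measured values and not to this bound, and of the 42 genes without Cenpf 38 were lower, with a median of -1.52. The other 9 genes of the centromere, spindle, and cytokinesis were all lower in spleen, with a median difference of -1.87, and the smallest difference among them was that of Kif23.

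Mki67, which coats mitotic chromosomes and serves as the usual marker of dividing cells, lay between 1.16 and 3.47 in spleen and between 3.37 and 4.49 in bone marrow. It was 3.74-fold lower in spleen (adjusted p = 6.83e-05). Top2a, which untangles sister DNA, was 3.81-fold lower (adjusted p = 1.25e-05). The cyclins, Cdk1, and anaphase-promoting complex genes were lower in 6 of 6 cases (median -1.83), and the mitotic kinases and checkpoint genes in 6 of 6 (median -1.61). Bub1b, a kinase of the spindle checkpoint, was 4.11-fold lower (adjusted p = 0.00012). Foxm1 differed by -1.67 and Mybl2 by -1.32, and both passed.

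Among the S phase genes, the deoxynucleotide genes were lower in 4 of 4 cases (median -1.03), the S phase entry and licensing genes in 4 of 6 (median -0.91), and the helicase genes with Pcna in 5 of 7 (median -0.86). Rrm2, the regulated subunit of ribonucleotide reductase, was 2.91-fold lower (adjusted p = 0.000106), and Mcm5 2.74-fold lower (adjusted p = 0.000197). Cdc6, which loads the helicase, and Ccne1, cyclin E1, were 2.44-fold and 2.11-fold lower (adjusted p = 0.00108 and 0.00612).

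The 4 genes that did not pass were all of S phase. Pcna, the sliding clamp of the DNA polymerases, differed by -0.30 ± 0.13 (adjusted p = 0.0688), with 6 of 10 pairs below 0. E2f1 differed by -0.29 ± 0.15 (adjusted p = 0.132), Cdt1, which loads the helicase with Cdc6, by -0.18 ± 0.16 (adjusted p = 0.373), and Mcm4 by -0.17 ± 0.17 (adjusted p = 0.422). In each of these genes the spleen and bone marrow ranges overlapped.

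The remaining genes all passed. Among the cyclins, Ccna2, Ccnb1, and Ccnb2 differed by -1.77 to -1.89, Cdk1 by -1.49, and Cdc20, which activates the anaphase-promoting complex, by -1.74. Among the kinases, Plk1 differed by -1.85, Bub1 by -1.78, Aurka, which matures the spindle poles, by -1.44, Aurkb by -1.27, and Birc5, a subunit of the complex of Aurkb, by -1.08. The centromere and spindle genes Nusap1, Cenpe, Kif20a, and Cenpa, the histone of centromeres, differed by -1.87, -1.80, -1.72, and -1.64. Of the S phase genes, Ccne2 differed by -1.59, Tk1, thymidine kinase, by -1.17, Rrm1, the large subunit of ribonucleotide reductase, by -0.89, Gmnn, which blocks a second licensing, by -0.74, and Tyms, thymidylate synthase, by -0.71. The helicase subunits Mcm7, Mcm6, Mcm2, and Mcm3 differed by -1.07, -1.03, -0.86, and -0.72, while Mcm4 did not pass. The 6 subunits therefore spanned a range from -1.45 in Mcm5 to -0.17 in Mcm4.

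**Figure D2:**
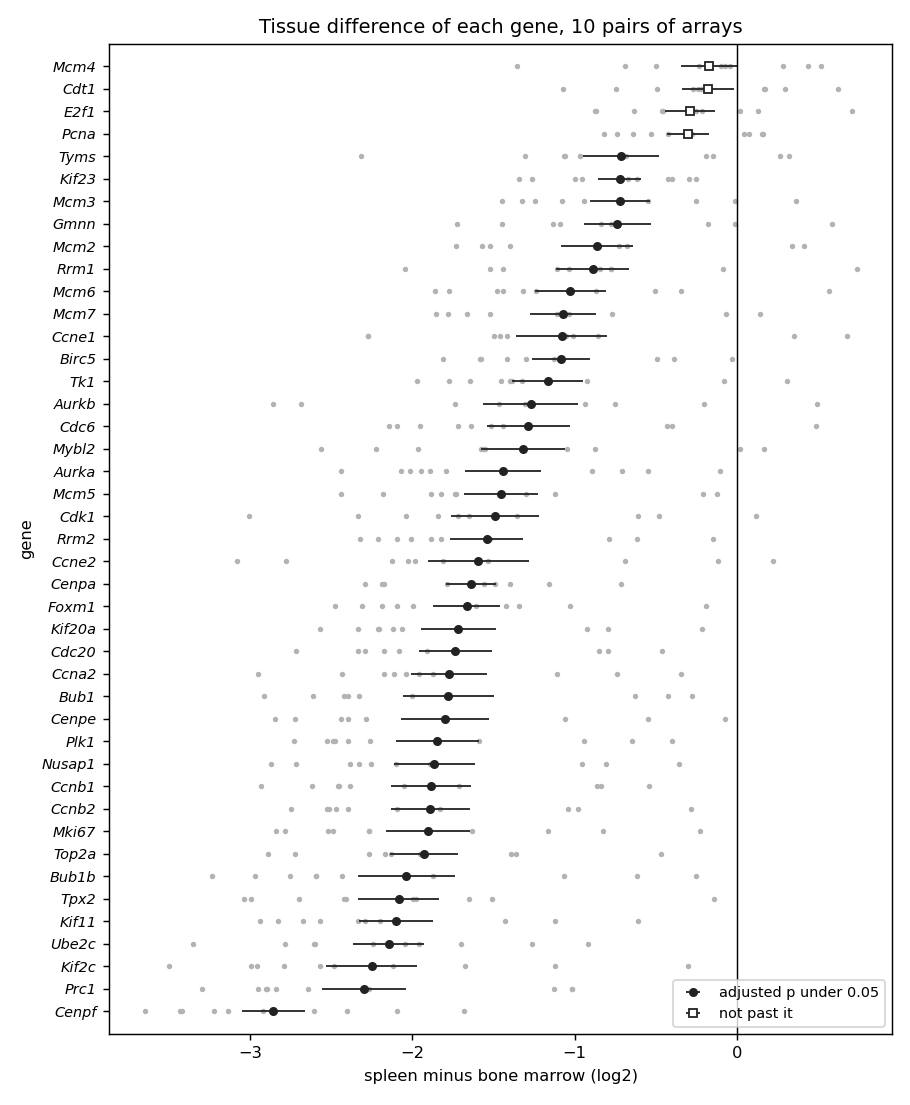
Spleen minus bone marrow (log2) for each of the 43 genes, sorted by size, with grey points for the 10 pairs of arrays and black points with bars for the limma estimate and its standard error. The filled points are the 39 genes past the threshold, and the 4 open squares next to 0 are Pcna, E2f1, Cdt1, and Mcm4, while the point of Cenpf rests on spleen values below background.

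The members had 14 further probes, for 11 genes, and 13 of these read lower in spleen on average. The exception was a Cdk1 probe, with a mean of 0.28 ± 0.31 (SD, n = 10 pairs), whereas the third Cdk1 probe gave -1.497 ± 1.09. The loss of 1 genotype or 1 time point left between 34 and 39 genes lower.

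The further genes of the cycle moved likewise. Of 65 such genes, 54 were lower in spleen and 3 higher, among them 27 of 27 of the mitosis list, 15 of 20 at origins and replication forks, and 4 of 5 other E2F factors. E2f8, an E2F repressor, differed by -1.98 ± 0.22 (adjusted p = 1.6e-05) and Nuf2, a kinetochore protein, by -2.26 ± 0.26 (adjusted p = 1.96e-05). The G1 cyclins and kinases split, with 3 of 6 lower and 2 higher. Ccnd1, cyclin D1, was higher in spleen by 4.08 ± 0.17 (adjusted p = 1.03e-08), while Cdk6, a partner kinase, was among the lower genes but was well above background in 2 of 11 spleen and 10 of 11 bone marrow arrays, so that its fold is not given. Of the inhibitors and pocket proteins, 5 of 7 were lower, and Cdkn1a, the inhibitor p21, was higher by 0.79 ± 0.16 (adjusted p = 0.00103).

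Markers of myeloid stages and of other cells differed between the tissues as well, and their part in the cell cycle result was not tested. Itgam, the gene of the CD11b antigen, and Itgb2, that of its partner chain, were present in every array and lower in spleen in 2 of 2 cases (median -1.39). The azurophil granule genes of neutrophil precursors (Mpo, Elane, Prtn3, Ctsg, and Ms4a3) were lower in 5 of 5 cases, with a median of -3.20. Their summed signal (log2) lay between 1.28 and 5.27 in spleen and between 5.92 and 7.30 in bone marrow. Specific granule genes were lower in 5 of 5 cases (median -1.08), megakaryocyte genes in 4 of 4 (median -1.55), and the 3 B cell precursor genes measured in both tissues in 3 of 3 (median -3.60). The fourth, Rag1, was well above background in 0 of 11 spleen and 10 of 11 bone marrow arrays. Macrophage genes were higher in 6 of 6 cases (median 1.69), B cell genes in 5 of 5 (median 1.74), and T cell genes in 3 of 4 with the other one lower. The summed signal of the T cell genes lay between 2.68 and 4.91 in spleen and between 3.58 and 4.47 in bone marrow. Other lists split or passed in part. Of the 4 stem and progenitor genes 2 were higher and 2 lower (median -0.21), and of the 8 erythroid genes 1 was higher and 2 lower. Mature neutrophil genes were lower in 2 of 5 cases (median -0.34). Monocyte and plasma cell genes were higher in 2 of 4 cases each.

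**Figure D3:**
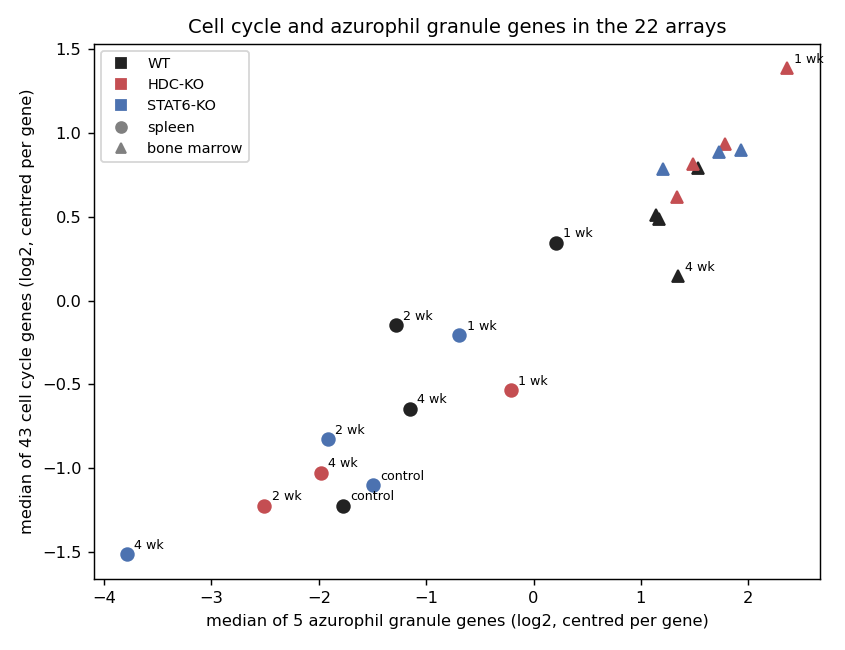
Median of the 43 cell cycle genes (vertical axis, log2, each gene centred over the arrays) against that of the 5 azurophil granule genes (horizontal axis, the same unit), with 1 point per array, coloured by genotype, round for spleen and triangular for bone marrow. The spleen array labelled STAT6-KO at MI 4 weeks is lowest on both axes (-1.51 and -3.79), and HDC-KO bone marrow MI 1 week is highest on both (1.39 and 2.36).

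The gap between the tissues ranged widely over single pairs of arrays. In WT control mice the median difference over 42 genes was -2.09, with 35 genes more than 1 log2 unit lower in spleen (11.1% of all genes measured in both arrays). In WT mice at MI 1 week it was -0.13, and 1 gene was that much lower (22.3% of all genes). In WT it was -0.62 at MI 2 weeks and -0.82 at MI 4 weeks. In HDC-KO mice it stayed between -1.96 and -1.63 at MI 1, 2, and 4 weeks. In STAT6-KO mice it was -2.11 in controls and -1.62 at MI 2 weeks. At MI 4 weeks it was -2.36, with the spleen array whose Stat6 signal lay among WT on 2 probes. These are differences between 2 arrays each, without replicates.

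In the spleen, 18 of the cell cycle genes were higher at MI 1 week than in controls. Of the 42 genes tested, without Cenpf, which was too dim in spleen, 18 rose and 0 fell (limma, adjusted p under 0.05), whereas 1.63% of the 26482 genes tested rose and 6.27% fell. The median difference was 1.15 for these 42 genes and -0.16 for all genes. The estimate was above 0 for 41 of the 42, and Tyms was the exception. Controls were at hand for WT and STAT6-KO only, and the fit took in all 11 spleen arrays, HDC-KO included. The STAT6-KO control had the high Xist signal (-2.06, against -8.99 in STAT6-KO at MI 1 week), whose part was not tested. In the 2 pairs with a control the median change was 1.53 in WT and 0.85 in STAT6-KO.

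Mki67 was 1.64 in WT control spleen and 3.47, 2.72, and 2.54 at MI 1, 2, and 4 weeks, and in STAT6-KO spleen it was 1.98, 2.91, 2.35, and 1.28. In HDC-KO spleen it was 2.22, 1.16, and 1.30 at MI 1, 2, and 4 weeks. In all 3 genotypes the array of MI 1 week was the highest. Its difference from control was 1.39 ± 0.34 (SE, adjusted p = 0.0468).

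Top2a was -1.69, -0.55, -0.75, and -1.24 in WT in the same order, -2.38, -0.91, -1.82, and -2.44 in STAT6-KO, and -1.49, -1.86, and -1.87 in HDC-KO. Cdk1, the kinase that drives mitosis, was 0.44, 1.88, 1.37, and 1.03 in WT, 0.40, 1.13, 0.82, and -0.38 in STAT6-KO, and 1.09, 0.31, and 0.65 in HDC-KO. Ccnb1, its cyclin B1, was -0.70, 0.60, 0.37, and -0.35 in WT, -0.75, 0.48, -0.60, and -1.44 in STAT6-KO, and -0.33, -0.91, and -0.73 in HDC-KO. Each of these was highest at MI 1 week within its genotype, and in the STAT6-KO array labelled MI 4 weeks each lay below its own control. Top2a rose by 1.20 ± 0.26 (adjusted p = 0.0339), while Cdk1 at 1.05 ± 0.35 and Ccnb1 at 1.14 ± 0.35 did not pass (adjusted p = 0.103 and 0.0822).

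Mcm5 was -0.36, 1.49, 1.24, and 0.15 in WT, -0.48, 0.88, 0.32, and 0.31 in STAT6-KO, and 0.76, 0.25, and -0.13 in HDC-KO. It was higher than its control at each time after MI in both genotypes with a control. It rose by 1.61 ± 0.25 at MI 1 week (adjusted p = 0.0132) and, at MI 2 weeks, differed by 1.17 ± 0.25 (adjusted p = 0.0532). Rrm2 was 1.98, 3.24, 2.91, and 2.49 in WT, 2.08, 2.85, 1.82, and 1.5004 in STAT6-KO, and 2.15, 1.74, and 2.12 in HDC-KO, and did not pass at MI 1 week (0.87 ± 0.34, adjusted p = 0.145).

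Cdc6 was -1.64, -0.08, -0.30, and -1.10 in WT, -1.49, -0.54, -1.25, and -1.87 in STAT6-KO, and -1.04, -1.22, and -1.57 in HDC-KO. E2f1 was -0.88, -0.03, -0.22, and -0.59 in WT, -0.98, -0.25, -0.54, and -0.58 in STAT6-KO, and -0.27, -1.08, and -0.80 in HDC-KO. Cdc6 rose by 1.15 ± 0.28 at MI 1 week (adjusted p = 0.0452) and E2f1 by 0.86 ± 0.20 (adjusted p = 0.0392). Ccne1 was -0.0001, 2.21, 2.11, and 0.73 in WT, 0.64, 1.48, 0.88, and 0.13 in STAT6-KO, and 1.06, 1.15, and 0.69 in HDC-KO. Ccne1 was higher than control in both genotypes and did not pass (1.36 ± 0.41, adjusted p = 0.0802). Pcna was 3.52, 3.96, 3.95, and 3.86 in WT, 3.44, 3.76, 3.62, and 3.67 in STAT6-KO, and 3.91, 3.95, and 4.29 in HDC-KO, a narrow range throughout (0.31 ± 0.18 at MI 1 week, adjusted p = 0.297).

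**Figure D4:**
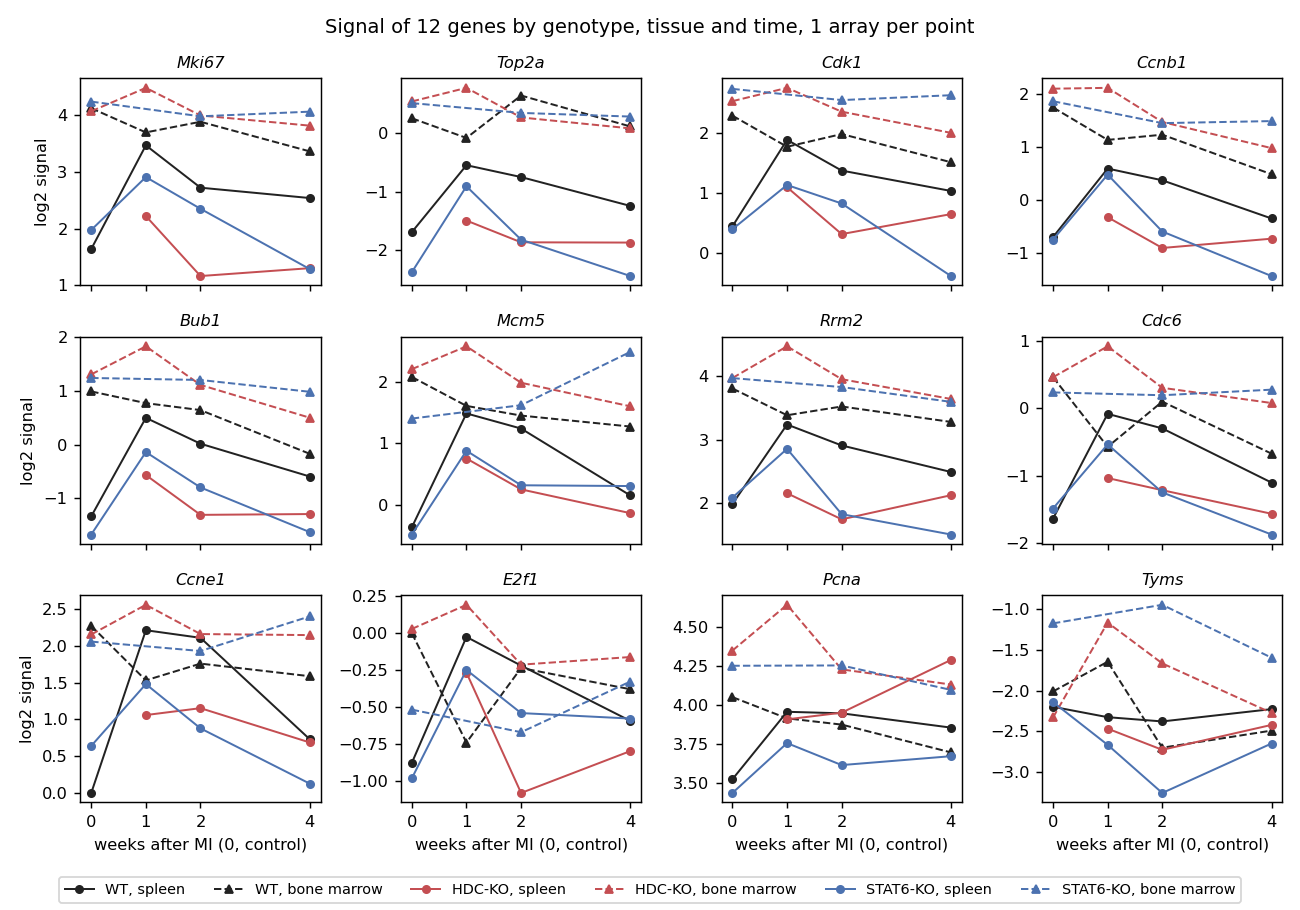
Log2 signal (vertical axes, minus the array's 75th percentile, a scale per gene) of 12 genes against weeks after MI (0 stands for control), with 1 array per point, solid lines for spleen, and broken lines for bone marrow. Mki67 in WT spleen goes from 1.64 in the control to 3.47 at MI 1 week, Pcna from 3.52 to 3.96, and Tyms from -2.20 to -2.33.

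The largest rises at MI 1 week were those of Kif2c (3.49-fold, 1.80 ± 0.29, adjusted p = 0.0157), Bub1b (3.42-fold, 1.78 ± 0.26, adjusted p = 0.0124), and Tpx2 (3.18-fold, 1.67 ± 0.21, adjusted p = 0.0089). Bub1, which recruits the checkpoint proteins to kinetochores, rose 3.12-fold (adjusted p = 0.012), and Plk1, a kinase of mitotic entry and cytokinesis, 2.89-fold (adjusted p = 0.0273). Ube2c rose 2.84-fold (adjusted p = 0.0281) and Kif11 2.80-fold (adjusted p = 0.0111). A second Tpx2 probe read the other way, with a mean of -1.05 over WT and STAT6-KO and higher than control in 0 of 2, while 13 of the 14 further probes were above control on average. By role, 7 of the 9 tested genes of the centromere, spindle, and cytokinesis rose, 4 of 6 mitotic kinases and checkpoint genes, and 2 of 2 chromosome proteins. In the other roles, 3 of 6 S phase entry and licensing genes rose, 1 of 7 helicase genes with Pcna, and 1 of 6 cyclins with Cdk1 and the anaphase-promoting complex. None of the 4 deoxynucleotide genes passed (limma, 3 at an unadjusted p under 0.05), nor Foxm1 and Mybl2 (limma, 2 at an unadjusted p under 0.05). The difference between the roles was not tested. Tyms differed by -0.33 ± 0.21 (adjusted p = 0.352) and was lower than control in both genotypes.

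In WT alone, 34 of 42 genes were more than 1 log2 unit above control at MI 1 week (6.76% of all genes) and 24 at MI 2 weeks (5.62%). In STAT6-KO it was 14 of 41 genes at MI 1 week (2.16%). The median change at MI 1 week was 1.53 in WT and 0.85 in STAT6-KO. At MI 4 weeks the median was 0.55 in WT and -0.37 in the array labelled STAT6-KO.

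Of the 65 further genes, 14 rose at MI 1 week and 0 fell, 10 of them in the mitosis list of 27. Espl1, the separase that cuts cohesin, rose by 1.75 ± 0.20 (adjusted p = 0.00864) and Kif4, a chromosome-bound kinesin, by 1.77 ± 0.29 (adjusted p = 0.0159). E2f7, an E2F repressor, rose by 1.49 ± 0.36 (adjusted p = 0.047), and Rbl1, the pocket protein p107, by 0.89 ± 0.17 (adjusted p = 0.0254). None of the 6 G1 cyclins and kinases passed (limma, 1 at an unadjusted p under 0.05).

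Other markers moved at the same time, and their part was not tested. Of the azurophil granule genes, Elane and Prtn3 rose (1.88 ± 0.41 and 1.66 ± 0.32, adjusted p = 0.0356 and 0.0251), and the median of the 5 was 1.66. Their summed signal was 3.36 and 3.59 in the WT and STAT6-KO controls and 5.27 and 4.44 at MI 1 week. T cell genes fell in 3 of 4 cases (median -1.69). The WT spleen MI 1 week array also had the lowest share of spots well above background (70.4%).

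The count of 18 depended on the settings. With normexp background correction it was 0 (smallest adjusted p = 0.189, 33 genes at an unadjusted p under 0.05), as over all genes, and with scaling to the median it was 31. It was 0 without the WT arrays, 1 without the HDC-KO arrays, 26 without the STAT6-KO arrays, and 26 without the spleen array labelled STAT6-KO at MI 4 weeks. The median difference stayed between 0.80 and 1.47 when a genotype was left out. Over all genes, 431 rose and 1661 fell, against 1388 risen genes of 2429 called with scaling to the median, which moved the median of all genes from -0.16 to 0.13.

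At MI 2 weeks in the spleen 0 of 42 genes passed (limma, smallest adjusted p = 0.0532, 18 at an unadjusted p under 0.05), where 2.25% of all genes passed in either direction. The median was 0.61, and 41 of the 42 estimates were above 0. With scaling to the median, 3 genes rose. At MI 4 weeks 0 of 42 passed, as did 0.00% of all genes (limma, 1 member at an unadjusted p under 0.05), and the median was 0.28.

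In the spleen, 4 mitotic genes were lower in HDC-KO than in WT. Of 42 genes, 4 were lower and 0 higher (limma, adjusted p under 0.05), against 0.748% of all 26482 genes lower and 2.07% higher. The median difference was -0.63 for the 42 genes and 0.06 for all genes. In 35 of the 42 genes the sign was the same at MI 1, 2, and 4 weeks.

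Bub1b was -0.07, -0.68, and -1.61 in WT and -1.17, -2.30, and -2.47 in HDC-KO at MI 1, 2, and 4 weeks. Kif11 was -1.99, -2.46, and -2.95 in WT and -2.84, -3.77, and -3.82 in HDC-KO. Tpx2 was 0.81, -0.31, and -0.65 in WT and -0.30, -1.31, and -1.68 in HDC-KO. Each of these HDC-KO values lay below the WT value of the same time point. The second Tpx2 probe read higher in HDC-KO at each time point, at -3.28, -2.61, and -0.81 against -3.38, -3.12, and -1.62 in WT. Bub1b was 2.14-fold lower (-1.10 ± 0.22, adjusted p = 0.0441), Kif11 1.98-fold (-0.99 ± 0.18, adjusted p = 0.0333), Tpx2 1.96-fold (-0.97 ± 0.18, adjusted p = 0.0349), and Bub1 1.96-fold (-0.97 ± 0.20, adjusted p = 0.0487).

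The other mitotic genes gave similar sizes without passing. Mki67 differed by -1.22 ± 0.28 (adjusted p = 0.0639), Cenpe, a kinetochore motor, by -1.04 ± 0.25 (adjusted p = 0.0718), and Top2a by -0.87 ± 0.22 (adjusted p = 0.0751). By role, the medians ran from -1.04 in Mki67 and Top2a and -0.92 in the centromere, spindle, and cytokinesis genes to -0.39 in Foxm1 and Mybl2. Pcna was the gene above 0 (0.15 ± 0.15, adjusted p = 0.6).

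Single time points differed. At MI 1 week 15 of 42 genes were more than 1 log2 unit lower in HDC-KO (4.34% of all genes), at MI 2 weeks 21 (4.00%), and at MI 4 weeks 2 (3.55%). Of the 65 further genes, 3 of the mitosis list fell, namely Ttk by 1.16 ± 0.22, Nuf2 by 1.03 ± 0.19, and Cep55 by 0.71 ± 0.13 (adjusted p = 0.036, 0.035, and 0.036). All 5 azurophil granule genes were below 0 as well, from -1.01 to -0.46, and 0 of them passed (limma, 1 at an unadjusted p under 0.05). The median was 0.87 for the 4 T cell genes and 0.81 for the 6 macrophage genes, of which 0 passed (limma, 3 and 4 at an unadjusted p under 0.05), and the part of these cells was not tested.

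**Figure D5:**
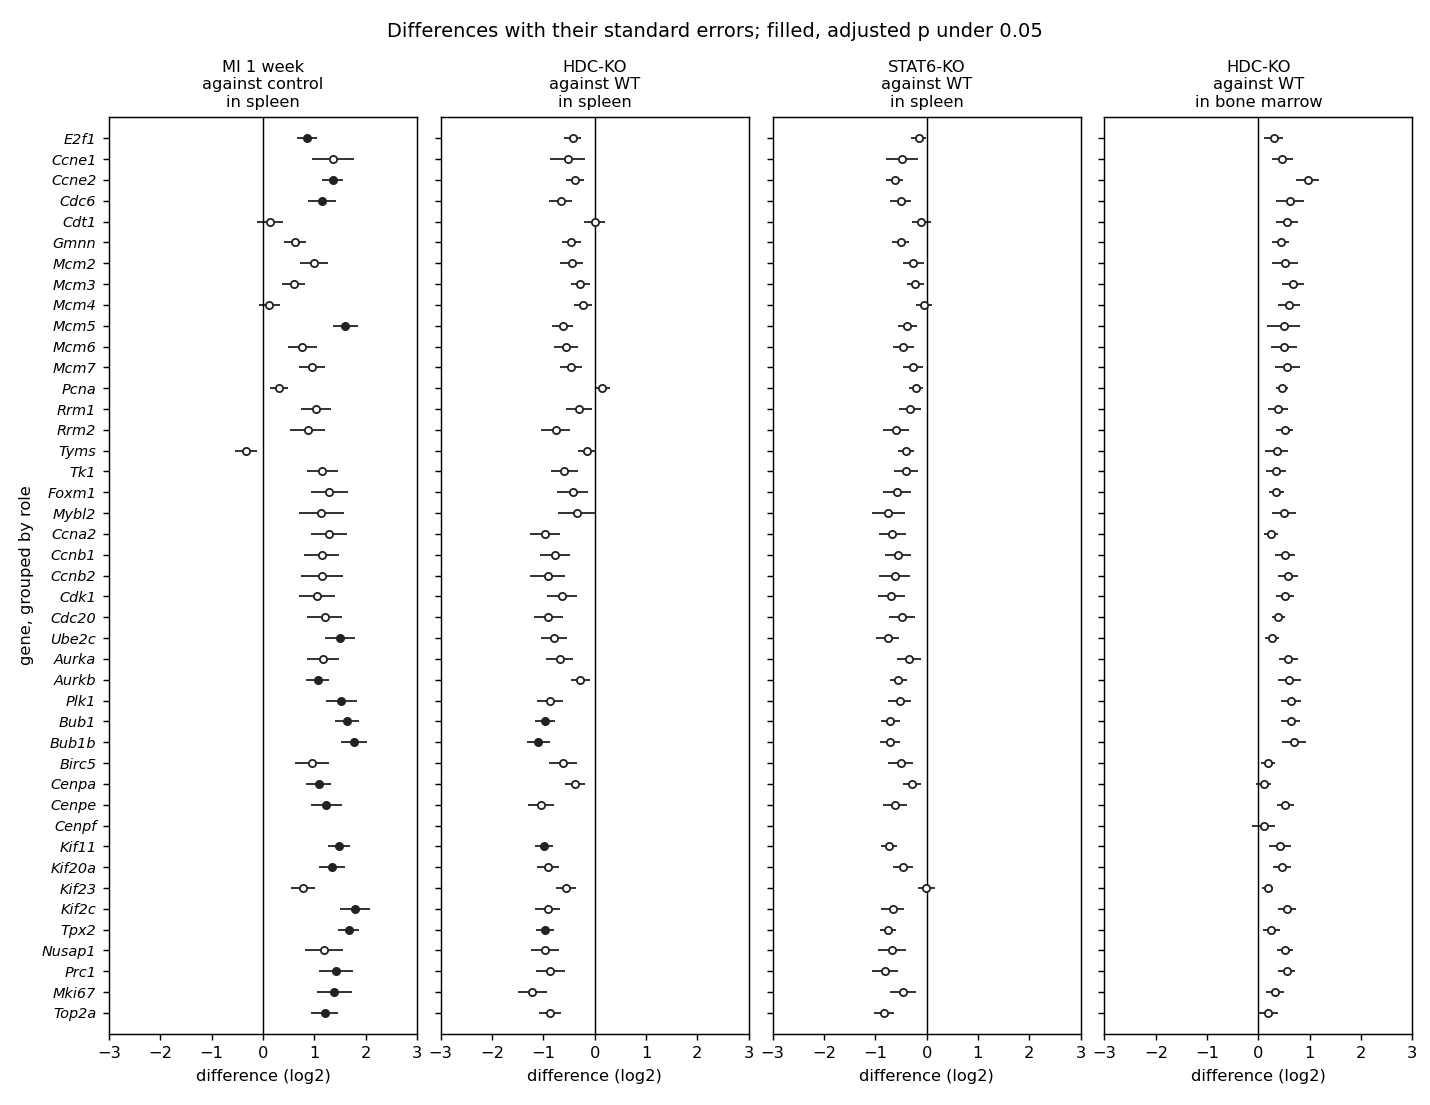
Limma estimates (log2, horizontal axes) with standard errors for each gene, in 4 comparisons, filled where the adjusted p was under 0.05. MI 1 week against control in spleen lies to the right of 0 with 18 filled points, HDC-KO against WT in spleen lies to the left with 4, and HDC-KO against WT in bone marrow lies to the right with 0.

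This count of 4 also moved with the settings. It was 0 with normexp, 0 without the arrays of MI 1, 2, or 4 weeks in turn, 10 without the controls, and 18 with the WT and HDC-KO arrays fitted alone, where 2610 of all genes passed against 745. HDC-KO and WT lay on different slides, and the Xist signal differed between them likewise.

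In STAT6-KO spleen 0 of 42 genes passed against WT (limma, smallest adjusted p = 0.0554, 20 at an unadjusted p under 0.05), where 1.96% of all genes passed. All 42 estimates lay below 0, with a median of -0.51. The smallest p belonged to Tpx2 (-0.75 ± 0.16, lower in 4 of 4 time points) and Kif11 (-0.74 ± 0.16, adjusted p = 0.0579). The median was 0.02 in the controls and -0.53, -0.70, and -0.87 at MI 1, 2, and 4 weeks. At MI 4 weeks 14 genes were more than 1 log2 unit lower (4.58% of all genes), in the array whose Stat6 level lay among WT on 2 probes. Without that array the median over time points was -0.37. Of the 65 further genes, Cep55, a protein of the last step of cytokinesis, fell by 0.90 ± 0.12 (adjusted p = 0.0175).

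In the bone marrow, no cell cycle gene passed between the time points. Mki67 was 4.13, 3.70, 3.89, and 3.37 in WT control and at MI 1, 2, and 4 weeks, 4.07, 4.49, 4.00, and 3.82 in HDC-KO, and 4.25, 3.98, and 4.07 in STAT6-KO control and at MI 2 and 4 weeks. Top2a was 0.26, -0.08, 0.64, and 0.12 in WT, 0.54, 0.78, 0.27, and 0.08 in HDC-KO, and 0.51, 0.35, and 0.28 in STAT6-KO. Cdk1 was 2.29, 1.77, 1.98, and 1.51 in WT, 2.53, 2.75, 2.35, and 2.00 in HDC-KO, and 2.73, 2.54, and 2.63 in STAT6-KO. The WT array at MI 4 weeks was the lowest for Mki67 and Cdk1, and HDC-KO at MI 1 week was the highest for all 3.

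Ccnb1 was 1.75, 1.14, 1.24, and 0.49 in WT, 2.11, 2.12, 1.48, and 0.98 in HDC-KO, and 1.87, 1.46, and 1.49 in STAT6-KO. Mcm5 was 2.08, 1.61, 1.45, and 1.27 in WT, 2.21, 2.58, 1.99, and 1.60 in HDC-KO, and 1.40, 1.62, and 2.49 in STAT6-KO. Rrm2 was 3.81, 3.38, 3.52, and 3.28 in WT, 3.97, 4.47, 3.95, and 3.64 in HDC-KO, and 3.97, 3.83, and 3.60 in STAT6-KO. In WT the control was the highest of the 4 arrays for these 3 genes, in contrast to the spleen.

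Pcna was 4.05, 3.92, 3.88, and 3.70 in WT, 4.35, 4.65, 4.23, and 4.13 in HDC-KO, and 4.25, 4.26, and 4.10 in STAT6-KO. The knockout arrays lay above the WT arrays by a small margin (4.10 against 4.05), and Pcna passed for neither knockout. The share of all genes with such an order is not given. Cdc6 was 0.46, -0.57, 0.10, and -0.67 in WT, 0.46, 0.92, 0.30, and 0.08 in HDC-KO, and 0.23, 0.19, and 0.27 in STAT6-KO. Ccne1 was 2.27, 1.53, 1.76, and 1.59 in WT, 2.15, 2.56, 2.16, and 2.15 in HDC-KO, and 2.06, 1.93, and 2.40 in STAT6-KO. These groups overlapped. E2f1 was -0.0002, -0.74, -0.24, and -0.38 in WT, 0.03, 0.19, -0.21, and -0.16 in HDC-KO, and -0.52, -0.67, and -0.33 in STAT6-KO.

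Against control, 0 of 43 genes passed at MI 1 week (0.148% of all genes passed), at MI 2 weeks, or at MI 4 weeks (0.00% at both), with 1, 0, and 8 genes at an unadjusted p under 0.05 by limma. The medians were 0.05, -0.20, and -0.27. The smallest adjusted p was 0.0867, for Cenpe at MI 4 weeks (-0.98 ± 0.20, lower in 3 of 3 genotypes). At MI 1 week the genotypes went different ways. The median was -0.34 in WT and 0.43 in HDC-KO, where all 43 genes were above control.

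In STAT6-KO bone marrow 3 of 43 genes were higher than in WT and 0 lower (limma, adjusted p under 0.05), against 3.99% of all 27099 genes higher and 0.631% lower. Tyms was 2.28-fold higher (1.19 ± 0.24, adjusted p = 0.0416), Ccne2, cyclin E2, 2.29-fold (1.19 ± 0.25, adjusted p = 0.0425), and Aurkb, the kinase of the chromosomal passenger complex, 2.28-fold (1.19 ± 0.25, adjusted p = 0.0459). Each was higher in 3 of 3 time points. Tyms was -2.01, -2.70, and -2.49 in WT control and at MI 2 and 4 weeks and -1.17, -0.94, and -1.60 in STAT6-KO. The median over the 43 genes was 0.37. The count was 0 with scaling to the median, and 0 without the controls, the arrays of MI 2 weeks, or those of MI 4 weeks. Of the further genes, Chek1, the checkpoint kinase of stalled forks, was higher by 2.26 ± 0.34 (adjusted p = 0.0159) and Cdkn1a fell by 1.04 ± 0.22 (adjusted p = 0.0434).

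In HDC-KO bone marrow 0 of 43 genes passed against WT (limma, smallest adjusted p = 0.121, 22 at an unadjusted p under 0.05), where 0.443% of all genes passed. All 43 estimates were above 0, with a median of 0.50, and 30 had the same sign at all 4 time points. Ccne2 had the smallest p (0.96 ± 0.22). At MI 1 week 20 of 43 genes were more than 1 log2 unit higher than in WT (4.76% of all genes), with a median of 0.99, against 0.10 in the controls. The WT array of that time stood apart, with 71.3% of spots well above background, the lowest share in bone marrow, and other markers differed between the arrays as well. The summed signal (log2) was 0.71 in WT and 2.26 in HDC-KO for the 5 B cell genes, 2.17 and 3.31 for the 8 erythroid genes, and 5.92 and 7.30 for the 5 azurophil granule genes, and their part in the difference was not tested. Without the arrays of MI 1 week the median over the 43 genes was 0.32.

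The median knockout effects were below 0 in spleen and above 0 in bone marrow, and their difference was tested over pairs of arrays. Both knockouts were set against the same WT arrays, so their like signs are not independent. The HDC-KO effect in spleen minus that in bone marrow had a median of -1.09, with all 43 estimates (Cenpf's on spleen values below background) below 0 and 33 at an unadjusted p under 0.05, but 0 genes passed (limma, smallest adjusted p = 0.0696), where 1.78% of all genes did. Kif20a, a kinesin of cytokinesis, differed by -1.49 ± 0.32, and Ccnb2, cyclin B2, by -1.61 ± 0.35 (adjusted p = 0.0704), each lower in 3 of 3 time points. For STAT6-KO the median was -0.90, 42 of 43 estimates were below 0, and 0 genes passed (limma, smallest adjusted p = 0.0689, 22 at an unadjusted p under 0.05), where 1.20% of all genes did. Ccne2 (-1.85 ± 0.38) and Aurkb (-1.76 ± 0.39, adjusted p = 0.0792) had the smallest p.

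Without the spleen array labelled STAT6-KO at MI 4 weeks, 16 genes passed for HDC-KO, and in a fit over all 22 arrays without the pairs 7 did for HDC-KO and 10 for STAT6-KO, all lower. Over all genes the HDC-KO count went from 492 to 1760 without that array. For the fit without the pairs the count over all genes is not given, so its 7 and 10 are not a result about the cell cycle genes. In simulated data with 200 genes changed and independent noise, the paired test for HDC-KO found 0% of genes changed by 2 log2 units. The same test called 492 genes in the measured data, so the simulation cannot settle its power here.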

How the data were processed

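RNA from pooled CD11b+ cells was hybridised to one-colour Agilent 4x44K mouse arrays. The deposited values are spot intensities on a linear scale, which the authors read with Agilent Feature Extraction 11.0.1.1, background-subtracted and not scaled between arrays. The labels name GCRMA and the methods Genespring for later steps, whose output was not used here. Of 24 arrays, 2 were not used. Signals were taken to log2 minus each array's 75th percentile. Over the 22 arrays 3055 outlier spots were left out, and 0 were saturated. The probe with the highest mean stood for its gene, and a gene entered a fit where at least 2 of its arrays were well above background. The tests were limma 3.58.1 (R 4.3.3) with Benjamini-Hochberg adjustment over all genes. Tissues were compared in 10 pairs, genotypes and times in additive fits over the 11 arrays of a tissue. Members, gene lists, and tests were chosen with earlier results of these data known. For each comparison, up to 8 genes past the threshold with the largest differences, or those with the smallest p, were named, and 10 genes were given in every array. The promoters shown, Cenpf's bound, and the probes and single-array differences were chosen after the values were seen. On simulated data with 200 genes changed, 99% of the genes changed by 2 log2 units were found between tissues and 61% at MI 1 week in spleen. Of the genes changed by 1 log2 unit, 77% and 5% were found. For HDC-KO in spleen it was 64% at 2 log2 units and 20% at 1. The simulated noise was drawn independently for each gene and array. Alternatives were normexp (offset 50, on the median spot signal), quantile and median scaling, other filters, the mean over probes, the methods' t-test, fits without pairs or with slide as a random block, and leaving out arrays. Plots used matplotlib 3.10.9.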

Additional observations from a re-analysis of the deposited data

How the results depend on the processing

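Between the tissues the count of 39 lower genes stayed between 33 and 40 under every alternative, and between 34 and 39 when a genotype or time point was left out. Over all comparisons, 129 of the counts equalled or stayed within 1.5 times the value in the report, and 40 moved. The 129 include counts of 0 that stayed 0. Of the values of single named genes, 843 kept direction and call, 169 lost the call, and 0 reversed. The kept calls came mostly from the tissue comparison, where a gene lost the call in at most 5 of 18 alternatives. Called genes lost it in 6 to 9 of 14 alternatives for HDC-KO in spleen and in 3 to 8 of 12 at MI 1 week in spleen. For STAT6-KO in bone marrow it was 8 or 9 of 13. The cause of each move was not tested. With normexp, 0 genes were called for HDC-KO in spleen, 0 at MI 1 week in spleen, and 1 for STAT6-KO in bone marrow. With quantile normalization, the counts were 2 for HDC-KO in spleen and 1 at MI 2 weeks in spleen. With scaling to the median, they were 31 at MI 1 week and 3 at MI 2 weeks in spleen and 0 for STAT6-KO in bone marrow. With only probes that were well above background throughout, they were 1 for STAT6-KO and 2 for HDC-KO in spleen, 3 at MI 2 weeks in spleen, 5 for STAT6-KO and 1 at MI 4 weeks in bone marrow, and 1 for the STAT6-KO tissue difference. Without a filter they were 2 for HDC-KO in spleen and 1 for STAT6-KO in bone marrow, and with the mean over probes 1 for STAT6-KO in spleen. The methods' t-test with Benjamini-Hochberg adjustment called 0 for HDC-KO and MI 1 week in spleen and 0 for STAT6-KO in bone marrow. The methods' own threshold was a fold above 2 and an unadjusted p under 0.05. At that threshold the t-test called 0 for HDC-KO in spleen, 11 at MI 1 week in spleen, 11 for the STAT6-KO and 3 for the HDC-KO tissue difference. With 2 genotypes alone, HDC-KO in spleen gave 18 and STAT6-KO in bone marrow 0. Without the spleen array labelled STAT6-KO at MI 4 weeks, MI 2 weeks in spleen gave 1 and the HDC-KO tissue difference 16. Leaving out 1 genotype or time point gave 0 to 2 genes for STAT6-KO in spleen, 0 to 10 for HDC-KO in spleen, 0 to 26 for MI 1 week in spleen, and 0 to 3 for STAT6-KO in bone marrow.

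The tissue comparison and the tissue differences of the knockout effects paired arrays of the same genotype and time. With no replicate block, 40 genes were lower in spleen, and the tissue differences gave 10 genes for STAT6-KO and 7 for HDC-KO.

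Scaling also moved the split of all called genes. For HDC-KO in spleen, 547 of 745 were higher, against 217 of 430 with quantile normalization and 327 of 625 with scaling to the median, which moved the median of all genes from 0.06 to -0.10. For STAT6-KO in bone marrow, 1081 of 1252 were higher, against 1021 of 1492 and 853 of 1256. At MI 2 weeks in spleen, 53 of 595 were higher, against 82 of 316 and 328 of 678. At MI 1 week in spleen, 431 of 2092 were higher, against 498 of 1281 with quantile normalization. For STAT6-KO in spleen, 179 of 519 were higher, against 174 of 381 with quantile normalization. For the tissue difference of the HDC-KO effect, 400 of 492 were higher, against 206 of 330 and 317 of 484, and for that of STAT6-KO 22 of 331, against 28 of 145 and 50 of 263.

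With 1 array of pooled cells per condition, the spread between mice was not measured, and the number of arrays limits the precision.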
